A study of Homo sapiens with 10 samples.

Results

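The cell surface peptidases are a set of 7 genes, CPM, CPD, CPE, MME, MMEL1, DPP4 and ANPEP, whose products trim peptides. Not all act at the cell surface, since CPE acts in secretory granules and CPD also in the trans-Golgi network. The members were taken as the probe sets whose only gene symbol is one of these names. Of the 12547 probe sets with 1 gene symbol (16376 in the table in all) 13 met this, so that 7 of 8904 measured genes are described. CPD has 4 probe sets, CPE, MME and DPP4 have 2 each, and CPM, MMEL1 and ANPEP have 1 each. The set was chosen by measured values, since CPM was selected for its high signal after R5020 and MMEL1 for its differences between the unliganded lines. Those values are therefore given as a description without a test.

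RNA was measured on 10 Affymetrix U133 Plus 2 arrays, 2 per group, in T47D human breast cancer cells. PR-A K388R cells and WT PR-A cells stably express the A isoform of the progesterone receptor, PR-A, the first with arginine in place of the lysine that carries SUMO (K388R) and the second unchanged. Both were made by transfecting expression vectors into T47D-Y cells, a cloned T47D line without progesterone receptor, so that receptor level and promoter are those of the vectors and each genotype is 1 derived line. Both PR-A lines received R5020, a synthetic progestin, at 10 nM or ethanol vehicle over 24 h, and T47D-Y cells are present with vehicle alone. Line and genotype thus cannot be told apart. No probe set among those analysed here is assigned to the receptor gene PGR, so the labels were not checked against it. The labels do not say whether the 2 arrays of a group come from separate cultures, so the p-values reflect no more than the spread of these arrays, which may be technical. Signals are log2 values, 1 unit of which is a doubling, and a probe set was called changed at an adjusted p under 0.05 in limma with a fold of at least 1.5. Unless a replicate block is named, the p-values come from a fit without the replicate number. They are too small, because that number had been removed from the deposited values.

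Ectopeptidases shorten signalling peptides outside the cell or on their way to it, and so switch them off, or change the receptor that they bind. Carboxypeptidases remove residues from the C terminus, aminopeptidases and dipeptidyl peptidases from the N terminus, and neprilysin-like enzymes cut inside the chain. Their substrates include kinins, enkephalins, substance P, natriuretic peptides, chemokines and growth factors. In the normal breast MME, known as CALLA, marks myoepithelial cells, and in luminal cells progestins act through the receptor as a ligand-dependent transcription factor that binds an inverted repeat of a short hexamer.

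The start-site windows of the 4 genes whose signals differed most among the groups are shown because the receptor acts at DNA. They are RefSeq windows of build GRCh38.p14 that run 250 bases before to 50 bases after an annotated start, written 5′ to 3′ on the strand of the gene, and CPM is shown with both a GC-rich and a GC-poor window. Capitals mark the hexamer AGAACA, or TGTTCT on the other strand, which is 1 arm of the receptor's element.
CPM, minus strand, chr12:68933150-68933449: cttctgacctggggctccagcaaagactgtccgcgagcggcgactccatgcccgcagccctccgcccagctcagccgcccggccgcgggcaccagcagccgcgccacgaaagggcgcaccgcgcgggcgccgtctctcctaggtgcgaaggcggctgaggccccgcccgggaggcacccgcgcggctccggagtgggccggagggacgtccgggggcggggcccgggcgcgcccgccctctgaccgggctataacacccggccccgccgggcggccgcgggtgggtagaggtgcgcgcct
CPM, minus strand, chr12:68932573-68932872: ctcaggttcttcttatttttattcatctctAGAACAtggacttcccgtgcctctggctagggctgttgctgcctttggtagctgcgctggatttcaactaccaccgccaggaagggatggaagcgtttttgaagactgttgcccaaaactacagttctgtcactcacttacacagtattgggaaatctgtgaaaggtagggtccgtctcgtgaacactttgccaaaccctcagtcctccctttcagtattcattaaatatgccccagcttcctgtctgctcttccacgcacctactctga
CPD, plus strand, chr17:30378677-30378976: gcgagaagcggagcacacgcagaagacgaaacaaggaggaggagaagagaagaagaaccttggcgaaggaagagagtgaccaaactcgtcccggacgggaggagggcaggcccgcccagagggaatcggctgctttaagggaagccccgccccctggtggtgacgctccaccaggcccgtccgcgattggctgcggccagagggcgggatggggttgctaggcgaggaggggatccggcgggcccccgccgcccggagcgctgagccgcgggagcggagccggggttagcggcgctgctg
CPE, plus strand, chr4:165378758-165379057: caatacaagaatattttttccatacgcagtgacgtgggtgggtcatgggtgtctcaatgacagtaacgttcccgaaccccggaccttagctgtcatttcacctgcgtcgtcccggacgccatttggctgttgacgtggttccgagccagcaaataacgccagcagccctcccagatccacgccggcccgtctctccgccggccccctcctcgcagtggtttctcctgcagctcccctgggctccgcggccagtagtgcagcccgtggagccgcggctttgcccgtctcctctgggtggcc
MMEL1, minus strand, chr1:2632967-2633266: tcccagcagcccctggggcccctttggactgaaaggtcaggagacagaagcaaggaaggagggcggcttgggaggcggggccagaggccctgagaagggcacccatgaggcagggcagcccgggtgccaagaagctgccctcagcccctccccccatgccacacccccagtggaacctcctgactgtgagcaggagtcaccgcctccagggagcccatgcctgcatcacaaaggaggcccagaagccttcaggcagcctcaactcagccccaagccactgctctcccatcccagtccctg
The hexamer was in 1 of the 14 windows of the 7 genes, the second CPM window, where its first base lies at -220 from that start, and it was in 14.8% of all 35116 RefSeq windows. The full core ACANNNTGT, which reads the same on both strands, was in 0 of 14 windows and in 5.37% of all. The letters were searched on both strands, the hexamer can overlap an arm of the core, and a match is a description of these letters alone. Base composition differed more among the windows. The first CPM window has 78.7% GC and 44 CpG dinucleotides and the second has 48% and 7. The CPD window printed has 69% GC with 30 CpG and a second CPD window, chr17:30380228-30380527, has 45% with 3. The CPE window has 62% with 24 and the MMEL1 window 66% with 4.

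The genes lie on separate chromosomes. In GRCh38.p14 CPM spans chr12:68842197-68963469, CPD chr17:30378927-30469989, CPE chr4:165379008-165498547, MME chr3:155024202-155183729, MMEL1 chr1:2590639-2633016, DPP4 chr2:161992245-162074215 and ANPEP chr15:89784895-89814852. The files do not say which exon or untranslated region each probe set lies in.

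The cells carried the markers of luminal epithelium on every array. KRT18 lay at 13.45 to 14.29, EPCAM at 11.09 to 11.77 and CDH1 at 11.74 to 12.35 on the log2 scale. Of the 10 measured luminal genes 0 fell below the lower quartile of an array. The same held for the 5 basal and myoepithelial genes, so this count does not tell these cell types apart. Their levels were not constant, however. ESR1, the estrogen receptor, ranged over 7.73 to 10.11, FOXA1 over 8.22 to 9.86, TFF1 over 4.17 to 5.88 and TFF3 over 6.39 to 7.84. Luminal genes were called in several of the comparisons below, and their part in the peptidase values was not tested. These counts are too small to read against the shares of all probe sets. With R5020 in WT PR-A cells 2 of 10 fell, against 2.92% of all probe sets (FOXA1 by 1.46 and ERBB3 by 0.62), with a list median of -0.42. In PR-A K388R cells 1 of 10 fell, against 0.562% of all, with a median of -0.22. This was FOXA1, by 0.61 (limma adjusted p = 0.029, and 0.0698 with the replicate block). In the vehicle-treated lines, set against T47D-Y, 2 of 10 fell in PR-A K388R cells (TFF1 and TFF3), against 2.77% of all. In WT PR-A cells 3 of 10 fell (KRT19, ESR1 and TFF1), against 3.65% of all. In PR-A K388R set against WT PR-A cells, KRT19 and ESR1 rose and TFF3 fell with either treatment, and KRT18 also rose with R5020. Of all probe sets 2.81% were higher and 4.99% lower there with vehicle, and 3.38% and 5.81% with R5020. Markers of other cell types were mixed. Of 6 leukocyte genes PTPRC and LYZ stayed at or under 3.24, while CD14, CSF1R, ITGAM and CD3E ran between 4.01 and 5.77. Of 5 endothelial genes CDH5, KDR and TEK stayed at or under 3.31, while VWF and PECAM1 ran between 3.97 and 6.14. Of 7 fibroblast genes LUM stayed at or under 2.62, while COL1A1 lay at 6.11 to 9.59 and the other 5 between 3.25 and 5.49. Of 5 basal and myoepithelial genes ACTA2 lay at 7.16 to 8.34 and the other 4 between 3.64 and 6.01. Arrays of a group correlated at 0.996 to 0.997 over all probe sets and arrays of different groups at 0.977 to 0.993, and the log2 differences of all probe sets had medians of -0.01 to 0.06 over the 7 comparisons.

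The peptidases covered most of the signal range of the arrays. CPD and CPE were bright, MMEL1 was intermediate to bright, and MME 203435_s_at lay above and DPP4 203716_s_at close to the array medians, which ran between 4.59 and 4.69. ANPEP and the MME probe set 203434_s_at were below the lower quartile of the array (3.28 to 3.39) on all 10 arrays, the DPP4 probe set 203717_at on 7 and CPM on 4. Probe sets differ in binding, so these levels do not rank the genes.

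**Figure D1:**
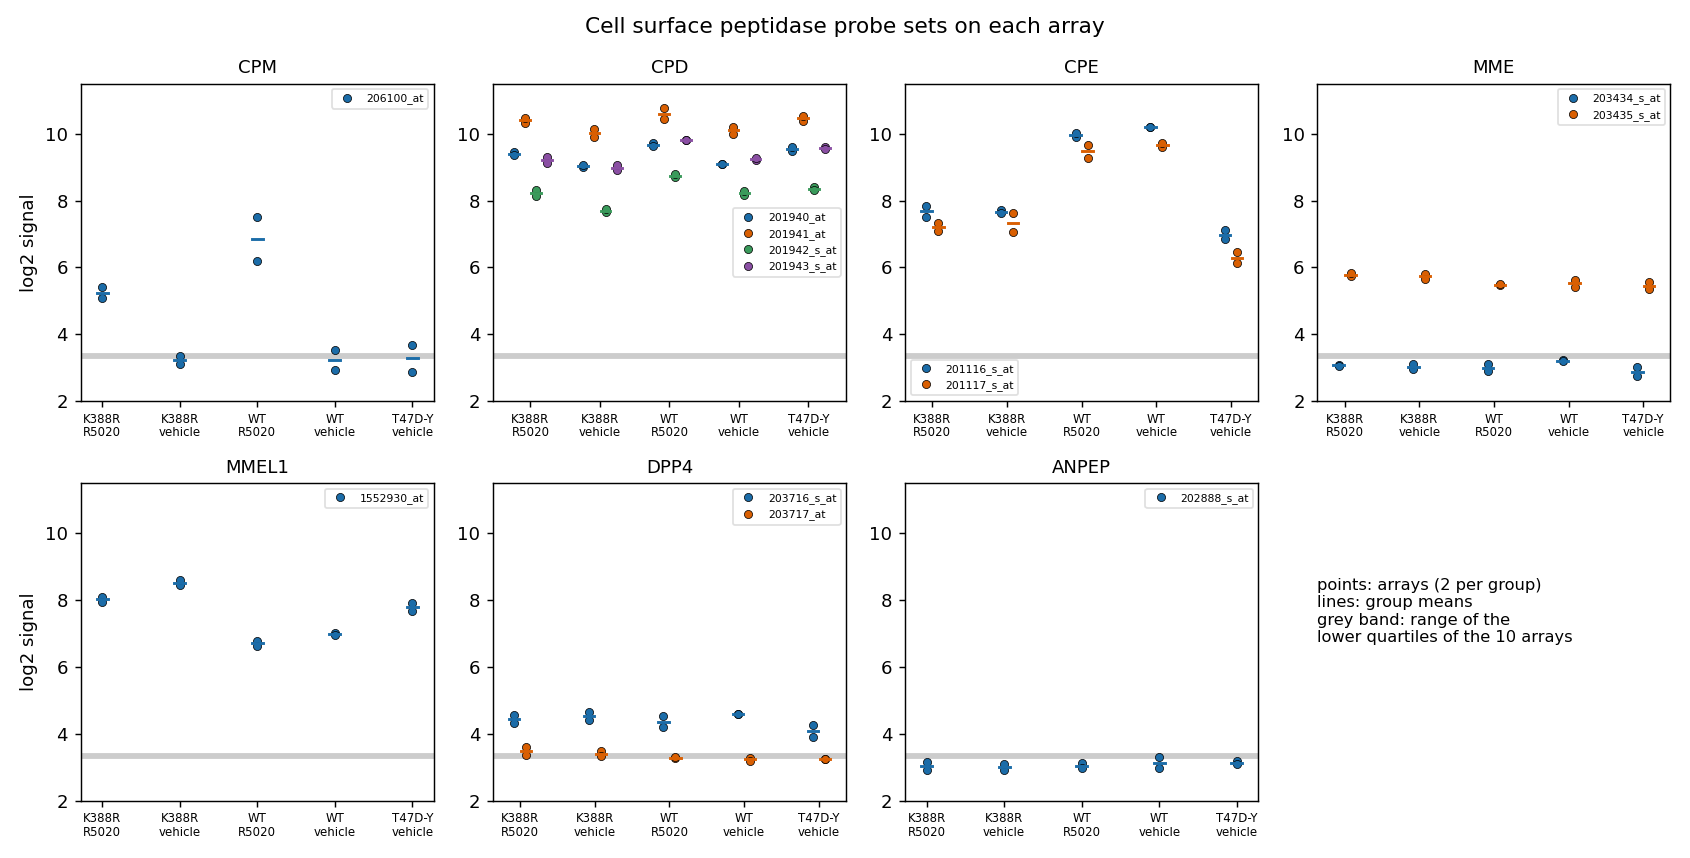
Log2 signal of the 13 peptidase probe sets (y axis) on each array of the 5 groups (x axis), with points for the 2 arrays of a group, short lines for group means and a grey band for the range of the arrays' lower quartiles. CPM lies near the band in the 3 vehicle groups and at 5.07 to 7.51 with R5020, CPE is above 9.28 in WT PR-A cells alone, and MMEL1 is highest in PR-A K388R cells.

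With R5020, CPM was higher in both PR-A lines and 1 CPD probe set rose in WT PR-A cells, while the other 5 genes gave no call. Among the 12 probe sets tested in the R5020 response of PR-A K388R cells, 0 rose and 0 fell, against 1.19% and 0.562% of all 16376 probe sets. In WT PR-A cells 1 of 12 rose and 0 fell, against 3.71% and 2.92% of all. In the difference of the responses, PR-A K388R minus WT PR-A, 0 of 12 were positive and 0 negative, against 1.45% and 1.76% of all. With so few probe sets these counts are near the background. Both responses enter their difference, and CPM, whose responses chose it, is not in these counts. MMEL1 is in them without a call, though its vehicle arrays entered its choice. The replicate block left each count as it was.

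CPM, carboxypeptidase M, is anchored to the outer face of the membrane and removes C-terminal arginine or lysine from kinins and growth factors. Its signals were 5.07 and 5.40 in PR-A K388R cells with R5020 and 3.34 and 3.10 with vehicle. In WT PR-A cells they were 6.20 and 7.51 with R5020 and 3.51 and 2.94 with vehicle, and in vehicle-treated T47D-Y cells 3.68 and 2.87. All 4 arrays with R5020 lay above all 6 with vehicle, and the WT PR-A arrays with R5020 lay above those of PR-A K388R cells. The R5020 difference was 2.01 (SE 0.399) in PR-A K388R cells and 3.63 (SE 0.399) in WT PR-A cells, given as a description because it chose the gene. On 3 of the 4 vehicle arrays of these lines CPM lay below the array's lower quartile, so no exact fold is given. By replicate number the PR-A K388R differences were 1.73 and 2.30, and those of WT PR-A cells 2.69 and 4.57. The K388R response minus the WT response was -1.62 (SE 0.564). It was -2.27 without WT PR-A R5020 replicate 1 and -0.96 without replicate 2, and all of them are without a test.

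CPM signals overlapped among the vehicle-treated lines. The group means were 3.22 ± 0.17 in PR-A K388R, 3.22 ± 0.41 in WT PR-A and 3.28 ± 0.58 in T47D-Y cells (SD, n = 2 arrays each), so the groups overlapped. The vehicle arrays of the PR-A lines entered the choice of CPM, so these values are a description without a test. The PR-A K388R minus WT PR-A difference was -0.002 (SE 0.399), and values this close to the lower quartile are near the dim end of the scale.

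**Figure D2:**
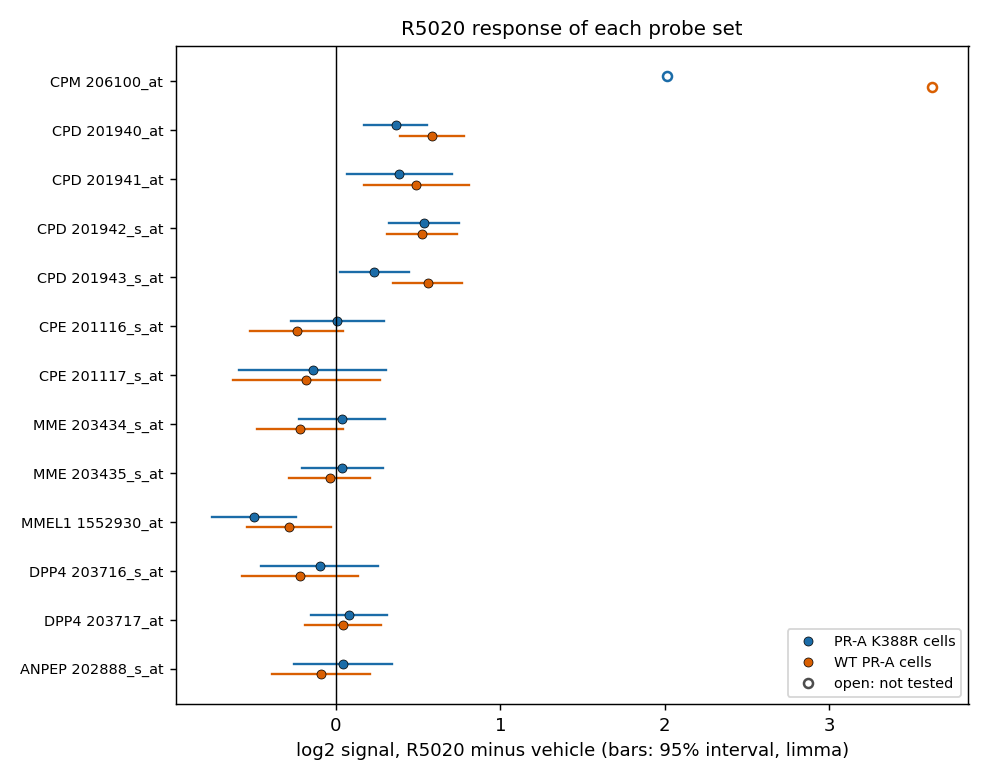
Log2 signal with R5020 minus vehicle (x axis) for each of the 13 probe sets (y axis) in PR-A K388R and WT PR-A cells, with 95% limma intervals as bars and open symbols without bars where the value chose the gene. The 4 CPD probe sets lie between 0.23 and 0.59 in both lines, and the open CPM symbols stand at 2.01 and 3.63. The MMEL1 bars are a description, since its vehicle arrays entered its choice.

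CPD, carboxypeptidase D, is a membrane-spanning enzyme of the trans-Golgi network that cycles to the cell surface and trims basic C-terminal residues from proteins in the secretory pathway. For 201940_at the signals were 9.44 and 9.36 in PR-A K388R cells with R5020 and 9.01 and 9.06 with vehicle, and in WT PR-A cells 9.72 and 9.64 with R5020 and 9.09 and 9.10 with vehicle. T47D-Y cells had 9.48 and 9.59. The mean with R5020 lay above the vehicle mean of its line for each of the 4 CPD probe sets, which read 1 gene. In WT PR-A cells 201940_at rose by 0.59 (SE 0.0858, limma adjusted p = 0.00182, and 0.00799 with the replicate block), just at the fold of 1.5. The others differed by 0.56 for 201943_s_at (limma adjusted p = 0.00372) and 0.52 for 201942_s_at (limma adjusted p = 0.00609), both short of that fold, and by 0.49 for 201941_at (limma adjusted p = 0.0574).

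For CPD in PR-A K388R cells the differences were 0.53 for 201942_s_at (limma adjusted p = 0.02, and 0.0649 with the replicate block), 0.38 for 201941_at, 0.36 for 201940_at and 0.23 for 201943_s_at. The last 3 had limma adjusted p of 0.236, 0.0631 and 0.281, in that order. None of the 4 responses differed between the lines past the adjusted threshold. The K388R minus WT difference of responses was -0.22 for 201940_at, with a 95% interval of -0.49 to 0.05, -0.10 for 201941_at, with an interval of -0.56 to 0.35, and 0.01 for 201942_s_at, with an interval of -0.29 to 0.31. For 201943_s_at it was -0.33, with an interval of -0.62 to -0.03 that leaves out 0 before adjustment, and the limma adjusted p was 0.258. The 4 probe sets correlated at 0.727 to 0.943 over the 10 arrays, which share groups.

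The single CPD call was close to the fold limit. It was lost after quantile normalization (0.56), without WT PR-A vehicle replicate 1 (0.58) and without WT PR-A R5020 replicate 1 (0.54), each time through the fold, with the adjusted p still under 0.05 in limma.

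MMEL1, a neprilysin-like metallopeptidase, had signals of 8.11 and 7.94 in PR-A K388R cells with R5020 and 8.45 and 8.60 with vehicle. WT PR-A cells had 6.78 and 6.63 with R5020 and 7.02 and 6.97 with vehicle. The R5020 arrays lay below the vehicle arrays in both lines. The difference was -0.50 in PR-A K388R cells (SE 0.113) and -0.29 in WT PR-A cells (SE 0.113). These responses share their vehicle arrays with the comparisons that chose MMEL1, so they are a description without a test. The remaining members stayed within 0.24 of 0 on the log2 scale in both lines.

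Between the vehicle-treated lines CPE was the peptidase that differed most among those tested, and CPD differed at the margin. In PR-A K388R against WT PR-A cells 0 of 12 tested probe sets were higher and 2 were lower, against 2.81% and 4.99% of all probe sets. In PR-A K388R against T47D-Y cells 2 of 12 were higher and 2 lower, against 1.2% and 2.77%. In WT PR-A against T47D-Y cells 2 of 12 were higher and 0 lower, against 3.87% and 3.65%. The calls above are those of CPE and, for the lower ones against T47D-Y, CPD. Each count rests on probe sets of only 1 gene per direction, and these comparisons share arrays in pairs. CPM is among the 12 and added no call, though vehicle arrays of the PR-A lines entered its choice.

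CPE, carboxypeptidase E, removes C-terminal basic residues from prohormone fragments in secretory granules. Its probe set 201116_s_at read 7.84 and 7.52 in PR-A K388R cells with R5020 and 7.71 and 7.63 with vehicle. WT PR-A cells read 9.90 and 10.02 with R5020 and 10.19 and 10.21 with vehicle, and T47D-Y cells 6.85 and 7.10. For 201117_s_at the signals were 7.31 and 7.08 in PR-A K388R cells with R5020 and 7.62 and 7.05 with vehicle, 9.29 and 9.65 in WT PR-A cells with R5020 and 9.59 and 9.71 with vehicle, and 6.13 and 6.45 in T47D-Y cells. The order was WT PR-A, PR-A K388R, T47D-Y on both probe sets without overlap between lines, and R5020 and vehicle arrays of a line lay close together.

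In vehicle CPE was lower in PR-A K388R than in WT PR-A cells by 2.53 on 201116_s_at (SE 0.126, limma adjusted p = 4.02e-06), which is 5.79-fold. On 201117_s_at it was lower by 2.32 (SE 0.199, limma adjusted p = 8.78e-05), or 4.98-fold. WT PR-A cells exceeded T47D-Y cells by 3.23 (limma adjusted p = 1.15e-06, 9.36-fold) and 3.36 (limma adjusted p = 1.09e-05, 10.3-fold). PR-A K388R cells exceeded T47D-Y cells by 0.69 (limma adjusted p = 0.0111) and 1.05 (limma adjusted p = 0.0133). This smaller step was lost in an unmoderated analysis of variance (adjusted p = 0.0639 and 0.0955). It was also lost without PR-A K388R vehicle replicate 1 (limma adjusted p = 0.0535 and 0.0559) and without T47D-Y replicate 1 (limma adjusted p = 0.0881 and 0.0972).

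CPE gave no call with R5020. On 201116_s_at the difference was 0.01 in PR-A K388R cells, with a 95% interval of -0.27 to 0.29. In WT PR-A cells it was -0.24, with an interval of -0.52 to 0.04, and the R5020 arrays lay below the vehicle arrays. On 201117_s_at it was -0.14 in PR-A K388R cells, with an interval of -0.59 to 0.31, and -0.18 in WT PR-A cells, with an interval of -0.63 to 0.27. These intervals leave room for a modest fall. The 2 CPE probe sets correlated at 0.992 over the 10 arrays.

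**Figure D3:**
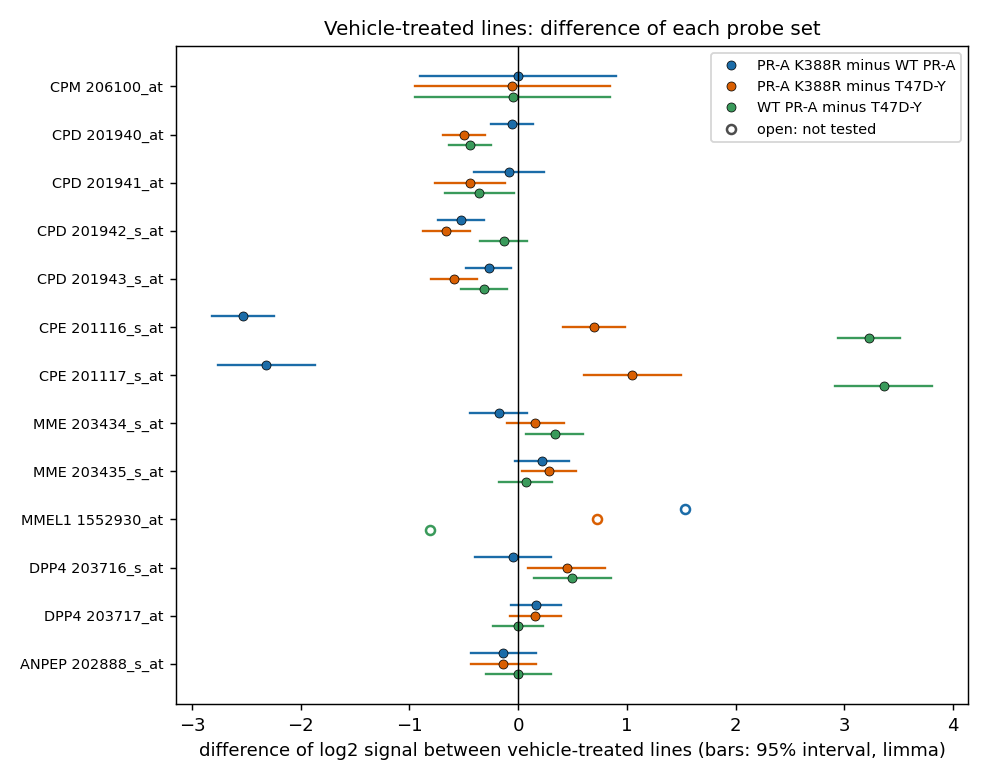
Difference of log2 signal between vehicle-treated lines (x axis) for each of the 13 probe sets (y axis), with 95% limma intervals as bars and open symbols without bars for MMEL1, which these comparisons chose. The CPE probe sets lie at 3.23 and 3.36 for WT PR-A minus T47D-Y and at -2.53 and -2.32 for PR-A K388R minus WT PR-A. MMEL1 has the opposite sign in both of these comparisons, while both genes are positive for PR-A K388R minus T47D-Y. The CPM bars are a description, since vehicle arrays of the PR-A lines entered its choice.

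MMEL1 showed another order of the lines. Its vehicle means were 8.53 ± 0.10 in PR-A K388R, 6.99 ± 0.04 in WT PR-A and 7.80 ± 0.16 in T47D-Y cells (SD, n = 2 arrays each), the T47D-Y arrays reading 7.69 and 7.92, and the arrays of the lines did not overlap. The differences were 1.53 for PR-A K388R minus WT PR-A (2.90-fold), 0.72 for PR-A K388R minus T47D-Y and -0.81 for WT PR-A minus T47D-Y. They chose the gene and are not tested. T47D-Y cells thus lay between the PR-A lines for MMEL1 and at the bottom for CPE.

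CPD was lower in vehicle-treated PR-A cells than in T47D-Y cells on all 4 probe sets in mean. PR-A K388R cells fell by 0.66 on 201942_s_at (limma adjusted p = 0.00407) and by 0.59 on 201943_s_at (limma adjusted p = 0.00601), and differed by -0.50 on 201940_at (limma adjusted p = 0.00859) and -0.44 on 201941_at (limma adjusted p = 0.0876), which missed the fold or the p. WT PR-A cells differed from T47D-Y cells by -0.44 on 201940_at (limma adjusted p = 0.00776) and by -0.13 to -0.36 on the other 3, none of them called. Both PR-A K388R calls were lost after quantile normalization, at -0.58 and -0.54, through the fold. That of 201943_s_at was also lost without PR-A K388R vehicle replicate 1 (-0.52) and without T47D-Y replicate 1 (-0.55).

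With R5020 present in both lines, CPE and 1 CPD probe set were lower and MMEL1 was higher in PR-A K388R than in WT PR-A cells. Of the 12 probe sets other than CPM, 1 was higher and 3 were lower, against 3.38% and 5.81% of all probe sets. The 1 higher is MMEL1, chosen for a difference between these lines, so the higher count is a description too. MMEL1 differed by 1.32 (SE 0.113, 2.50-fold). Its choice did not use these R5020 arrays but used the same lines, so this is a description without a test. CPE fell by 2.28 on both probe sets (limma adjusted p = 5.96e-06 for 201116_s_at and 7.58e-05 for 201117_s_at). CPD fell by 0.60 on 201943_s_at (limma adjusted p = 0.00189). It was no longer called after quantile normalization (-0.56) or without PR-A K388R R5020 replicate 2 (-0.52), and 201942_s_at missed the fold at -0.52 (limma adjusted p = 0.00482).

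CPM differed by -1.62 between the R5020-treated lines (SE 0.399), 3.07-fold lower in PR-A K388R cells. Its R5020 arrays entered its choice, so this is a description without a test. The difference was -0.97 without WT PR-A R5020 replicate 2, -2.27 without WT PR-A R5020 replicate 1 and -1.46 without PR-A K388R R5020 replicate 1. The WT PR-A arrays with R5020 differ by more than a log2 unit from each other.

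MME, neprilysin, DPP4, which takes dipeptides from chemokines and incretins, and ANPEP, aminopeptidase N, gave no call in the 7 comparisons on all arrays. MME 203435_s_at ran between 5.34 and 5.82 over the 10 arrays with a median of 5.59, and 203434_s_at between 2.74 and 3.23 with a median of 3.07. DPP4 203716_s_at ran between 3.91 and 4.65 with a median of 4.48, and 203717_at between 3.20 and 3.60 with a median of 3.29. ANPEP lay between 2.92 and 3.30 with a median of 3.09. The probe sets of MME correlated at 0.024 and those of DPP4 at -0.02 over the 10 arrays, so that neither pair moved together. The widest difference among these probe sets was that of DPP4 203716_s_at, which read 4.59 and 4.58 in WT PR-A and 3.91 and 4.27 in T47D-Y cells with vehicle. The difference was 0.50 (limma adjusted p = 0.071) with a 95% interval of 0.14 to 0.85. It was 0.67 without T47D-Y vehicle replicate 2, which leaves 1 T47D-Y array, so the absence of a call there depends on the arrays used.

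The genes whose signal ran most like that of CPM were LHX9, MDM2, WTAP, ETS2 and TAF5L. Pearson's r over the 10 arrays was 0.997, 0.991, 0.979, 0.976 and 0.976 in that order, among 3197 probe sets with 1 gene symbol and group means at least 1.5-fold apart. The points share groups, and r is a description. LHX9 is a dim signal, at 3.34 in PR-A K388R and 3.86 in WT PR-A cells with R5020 and at 2.71 to 2.75 in the vehicle groups. TAF5L, a subunit of histone acetyltransferase complexes, averaged 7.53 in PR-A K388R cells with R5020 and 6.52 with vehicle, and 8.53 in WT PR-A cells with R5020 and 6.66 with vehicle. ETS2, an ETS transcription factor, averaged 5.60 and 5.93 in PR-A K388R and WT PR-A cells with R5020, and 4.95 and 4.73 with vehicle.

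MDM2, the ubiquitin ligase that acts on p53, is also a neighbour of CPM. It was looked at for this after the pattern of CPM had been seen. MDM2 lies at chr12:68808172-68850686 and its RefSeq span shares 8490 bases with that of CPM, and it was the only gene within 100 kb with a probe set in the table. Its probe set 205386_s_at read 4.29 and 4.30 in PR-A K388R cells with R5020 and 3.92 and 3.89 with vehicle, 4.55 and 4.84 in WT PR-A cells with R5020 and 4.03 and 3.87 with vehicle, and 4.04 and 3.93 in T47D-Y cells. The R5020 difference was 0.39 in PR-A K388R cells and 0.74 in WT PR-A cells (SE 0.113 each), as a description, since likeness to CPM brought the probe set up. The other MDM2 probe set, 205385_at, correlated with CPM at 0.435 and differed by 0.27 in PR-A K388R cells and by -0.02 in WT PR-A cells. The 2 MDM2 probe sets thus gave different readings in WT PR-A cells, and whether 205386_s_at reads sequence shared with CPM was not tested.

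**Figure D4:**
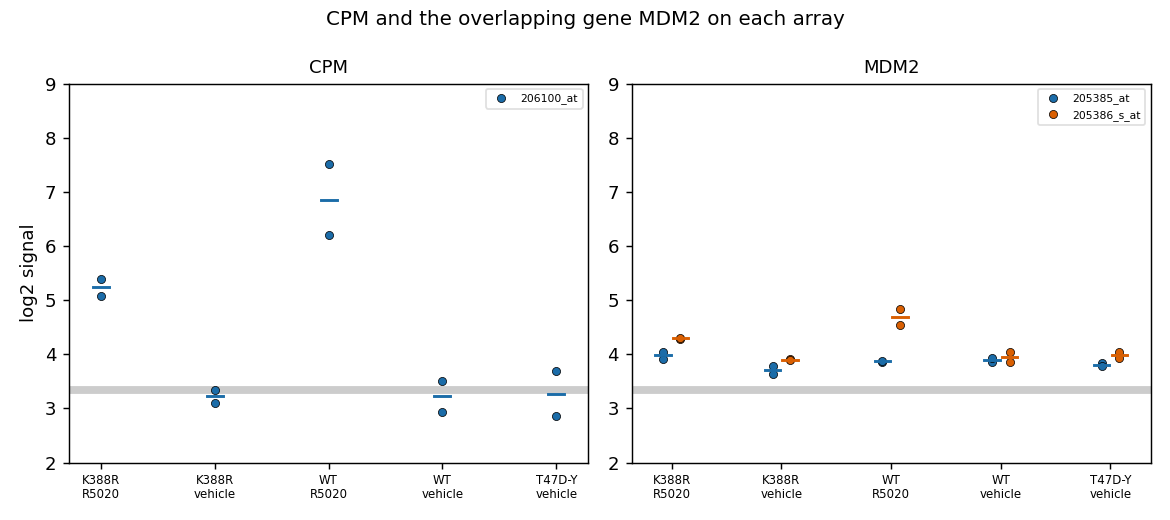
Log2 signal (y axis) of the CPM probe set and the 2 MDM2 probe sets on each array of the 5 groups (x axis), with points for arrays, short lines for group means and a grey band for the arrays' lower quartiles. The MDM2 probe set 205386_s_at is highest in the WT PR-A arrays with R5020, at 4.55 and 4.84, where CPM is also highest, while 205385_at stays between 3.64 and 4.04.

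For MMEL1 the 5 most alike genes were TNFAIP2 (r = 0.993), CSTB (0.986), ALOX5 (0.982), PCSK7 (0.978) and TTLL1 (0.978) over the 10 arrays. TNFAIP2 averaged 9.44 in PR-A K388R cells with R5020 and 9.81 with vehicle, 7.90 in WT PR-A cells with R5020 and 8.21 with vehicle, and 9.02 in T47D-Y cells. ALOX5, the lipoxygenase that begins leukotriene synthesis, averaged 6.76 and 7.24 in PR-A K388R cells with R5020 and vehicle, 5.30 and 5.60 in WT PR-A cells, and 6.64 in T47D-Y cells. CSTB, an inhibitor of cysteine cathepsins, averaged 12.06 and 12.26 in PR-A K388R cells with R5020 and vehicle, 10.89 and 11.17 in WT PR-A cells, and 11.87 in T47D-Y cells. Each of the 3 lay lowest in WT PR-A cells, which follows from their choice by likeness to MMEL1.

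Of 144 related genes on 7 lists, which hold other families of peptidases and the peptides and receptors that they act on, 73 were measured, each read on its brightest probe set. In WT PR-A cells 6 of them rose with R5020 and 3 fell (8.22% and 4.11%, against 3.71% and 2.92% of all probe sets). Those that rose were EGF (1.82, limma adjusted p = 5.77e-05), MMP15 (1.13), ECE1 (0.69), PREP (0.68), AGTPBP1 (0.62) and ADAM15 (0.59). They encode a growth factor, a membrane-type matrix metalloprotease, the endothelin-converting enzyme, a cytosolic prolyl peptidase, a carboxypeptidase that trims tubulin glutamate and a membrane metalloprotease. QPCT, which cyclises N-terminal glutamine, fell by 1.09 (limma adjusted p = 0.0448, and 0.056 with the replicate block). PRSS8, the membrane-anchored prostasin, fell by 0.78 and ERAP2, an aminopeptidase of the endoplasmic reticulum, by 0.65. ERAP2 read 3.25 and 3.51 with vehicle and 2.82 and 2.65 with R5020, at the dim end of the scale, which limits what its fall can show.

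In PR-A K388R cells 1 related gene rose with R5020 and 2 fell (1.37% and 2.74%, against 1.19% and 0.562% of all probe sets). EGF rose by 0.91 (limma adjusted p = 0.0121), NPEPPS, a cytosolic aminopeptidase, fell by 0.62 and BDKRB2, a bradykinin receptor, fell by 0.59 (limma adjusted p = 0.0434, and 0.0958 with the replicate block). In the unmoderated analysis of variance 0 of these 3 genes were called. The difference of responses, PR-A K388R minus WT PR-A, was called for 7 related genes, 2.74% in the positive and 6.85% in the negative direction against 1.45% and 1.76% of all, of which ERAP2 (0.78) and CXCL9 (0.61) were positive and BDKRB2 (-1.14), MMP15 (-0.99), EGF (-0.91), PREP (-0.69) and EDN1 (-0.61) negative. With the replicate block 2 of the 7 were called, MMP15 and BDKRB2, and in the unmoderated analysis 1 related gene in all. The ERAP2 signals lay at the dim end of the scale in both lines.

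EGF, whose C-terminal arginine CPM can remove, had signals of 5.65 and 5.38 in PR-A K388R cells with R5020 and 4.63 and 4.59 with vehicle, 9.09 and 8.89 in WT PR-A cells with R5020 and 6.97 and 7.38 with vehicle, and 4.99 and 5.09 in T47D-Y cells. WT PR-A cells were the highest under both treatments without overlap. BDKRB2, whose ligand bradykinin is cut by carboxypeptidases of this family, read 6.13 and 5.78 in PR-A K388R cells with R5020 and 6.56 and 6.52 with vehicle, 6.39 and 6.53 in WT PR-A cells with R5020 and 5.88 and 5.95 with vehicle, and 7.32 and 7.51 in T47D-Y cells. R5020 arrays thus lay under the vehicle arrays in PR-A K388R cells and above them in WT PR-A cells. MMP15 read 7.54 and 7.63 in PR-A K388R cells with R5020 and 7.37 and 7.53 with vehicle, against 8.74 and 8.59 in WT PR-A cells with R5020 and 7.52 and 7.55 with vehicle.

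Between the vehicle-treated lines 11 related genes were called for PR-A K388R against WT PR-A cells, 3 higher and 8 lower (4.11% and 11%, against 2.81% and 4.99% of all probe sets). Those that were lower were QPCT (-3.12, limma adjusted p = 0.000158), EGF (-2.56), CXCL10 (-1.74), CCL5 (-0.99), PRSS8 (-0.98), ENPEP (-0.94), PAM (-0.86) and HPN (-0.67), and those that were higher were DPP6 (0.65), BDKRB2 (0.63) and PCSK7 (0.60). With the replicate block CCL5, ENPEP and HPN were no longer called, and the unmoderated analysis called 6 related genes in all. PAM, which amidates peptide hormones, and QPCT act beside CPE in prohormone processing. QPCT read 5.43 and 5.57 in PR-A K388R, 8.88 and 8.35 in WT PR-A and 6.64 and 6.03 in T47D-Y cells with vehicle, and PAM 8.22 and 8.04, 9.07 and 8.91, and 7.87 and 8.08 in the same order of lines. Both were highest in WT PR-A cells, as CPE was, but QPCT was lowest in PR-A K388R cells and CPE in T47D-Y cells. On the list of proprotein convertases and peptide processing 2 of 11 measured genes were lower and 1 was higher, counts too small to read against those shares, with a median of -0.15 against 0.05 for all probe sets.

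Against T47D-Y cells 5 related genes were called in PR-A K388R cells, 2.74% higher and 4.11% lower against 1.2% and 2.77% of all probe sets. They were EDN1 (1.00) and CPA4 (0.79) higher and NPY1R (-1.42), BDKRB2 (-0.87) and PRSS8 (-0.62) lower, and the unmoderated analysis called 3 related genes. In WT PR-A cells 7 were called, 6.85% higher and 2.74% lower against 3.87% and 3.65% of all. They were CXCL10 (2.56), QPCT (2.29), EGF (2.14), CCL5 (1.03) and PAM (1.02) higher and NPY1R (-2.18) and BDKRB2 (-1.50) lower, and CCL5 was lost with the replicate block. NPY1R, a neuropeptide Y receptor whose ligand DPP4 can cut, read 4.63 and 4.18 in PR-A K388R, 3.39 and 3.90 in WT PR-A and 6.06 and 5.59 in T47D-Y cells. With R5020 in both lines, EGF (-3.47), QPCT (-2.57), MMP15 (-1.08) and PREP (-0.76) were lower in PR-A K388R than in WT PR-A cells and CXCL9 (0.61) was higher, 5.48% and 1.37% against 5.81% and 3.38% of all. On the list of other metallocarboxypeptidases 13 of 20 genes were measured, and AGTPBP1 and CPA4 were the only calls over the 7 comparisons, 1 each.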

How the data were processed

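RNA was hybridised to Affymetrix U133 Plus 2 arrays, and the deposited values are log2 signals per probe set, normalized by the authors with Partek software. The normalization method and background correction are not given in the sources used here, and only the probe sets whose identifiers sort first were used, 16376 in all. Of these, 457 have several gene symbols and 3372 are not in the probe table. Groups came from the labels. The model was a mean for each group over all 10 arrays without a block, fitted with limma 3.58.1 under R 4.3.3, and Benjamini-Hochberg adjustment ran over every probe set of the table. Tests were two-sided, and steps were tested on simulated data. The sum over the groups of replicate 2 minus replicate 1 was at most 3e-04 for every probe set, so the replicate number had been removed beforehand and p-values that count 5 residual degrees of freedom are too small. With that number as a block there are 4, with a prior of 5.62 against 4.35. The pairing check is void for the same reason, correlations of replicate differences between groups being -0.511 to -0.013. Alternatives were the unmoderated analysis of variance, an intensity trend, quantile normalization, median centring, a higher fold of at least 2, dropping the dimmest 40% of probe sets, the compared groups alone, the block, the probe set of largest variance for related genes, and leaving out each array. Members and lists were chosen with earlier results of these data known. Named genes are all members, up to 3 called genes per list, direction and comparison with the smallest adjusted p, and the 5 genes most alike CPM and MMEL1. Figures were drawn with matplotlib 3.10.9 in Python 3.11.15. The number of arrays, 2 per group, limits the precision.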

Additional observations from a re-analysis of the deposited data

How the results depend on the processing

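The number of peptidase probe sets called depended on the setting where values lay near the fold of 1.5 or the p threshold. For the response to R5020 in WT PR-A cells, with 1 called, quantile normalization gave 0, a fold of at least 2 gave 0, and leaving out 1 array gave 0 to 2. In the R5020 response of PR-A K388R cells, with 0 called, leaving out 1 array gave 0 to 1. In the vehicle comparison of PR-A K388R with T47D-Y, with 4 called, the unmoderated analysis of variance gave 2, quantile normalization gave 2, a fold of at least 2 gave 1, and leaving out 1 array gave 1 to 4. In the other 4 comparisons these counts stayed within 1.5 times under each alternative run. For the R5020-treated lines that count included CPM and MMEL1, whose values are a description without a test. No single probe set reversed a called direction. Over all single probe sets and alternatives, 1494 values kept their side of the threshold or lay within the replicate spread, 18 lost it, 5 passed it and 9 untested values moved by more than that spread. The 18 include values of CPM between the R5020-treated lines, which are a description without a test. The fit with the replicate block kept the peptidase counts of all 7 comparisons. They were 1, 0 and 0 for the R5020 response in WT PR-A cells, that in PR-A K388R cells and their difference. Vehicle WT PR-A against T47D-Y kept 2, vehicle PR-A K388R against T47D-Y 4, and vehicle PR-A K388R against WT PR-A 2. Between the R5020-treated lines 1 higher and 3 lower were kept among the 12 probe sets other than CPM, the 1 higher being MMEL1, a description. With the replicate block, 2 in place of 7 related genes were called in the difference of responses. Signals below the lower quartile limit what ANPEP, 1 probe set each of MME and DPP4, unliganded CPM and the related gene ERAP2 can show.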
